A study of Mus musculus with 14 samples.

Results

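The amino acid transporters described here are the carriers of the solute carrier families 1, 3, 6, 7, 36, 38 and 43, taken by gene name from the array annotation. The names Slc1a, Slc3a, Slc6a, Slc7a, Slc36a, Slc38a or Slc43a followed by a number picked out 95 of the 41174 probes, for 55 genes. Of these genes, 53 were bright enough to be tested, among 23648 tested genes in all. The remaining members, Slc6a5 and Slc6a19, were not well above background on every array of any replicated group and have no values here. The rule used names and no measured value, but it was set with earlier results of these data known. It did not pick up 11 further probes of 5 genes of family 38 that carry clone names in the annotation.

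Cells were sorted from the mammary glands of mice and their RNA was measured on 14 two-colour arrays. Wild-type FVB/N-J mice, pregnant or virgin, gave the populations P4 (labelled CD24+CD29hi and stem-cell enriched), P5 (given the same gate in the labels but called luminal progenitor enriched) and P6 (CD24lo, labelled differentiated MEC, read here as mammary epithelial cells), with 2 arrays for each of these 6 groups. Virgin transgenic L2G85 mice, which carry luciferase and GFP under the ubiquitous CAG promoter on the FVB/N background, gave cells free of lineage markers that were sorted by GFP into a bright (GFPhi) and a dim (GFPlo) fraction, 1 array for each. The labels give neither the mice's ages nor the day of pregnancy, and do not say whether the 2 arrays of a group came from separate animals, so the spread behind every p-value is that between arrays and may be technical. Every level is a log2 ratio of the sorted cells over a reference RNA mixed from 11 mouse cell lines, so it compares one probe between groups and not one gene with another.

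Cells take up amino acids through carriers that differ in what they move and in what drives them. The light chains of family 7 pair with a heavy chain of family 3 and mostly exchange one amino acid for another, family 1 carries acidic or small neutral amino acids, families 6 and 38 couple uptake to sodium, family 36 couples it to protons, and family 43 works by facilitated diffusion. Mammary epithelium draws on these carriers to supply essential amino acids for milk protein, with the leucine carriers of system L and the arginine and lysine carriers of system y+ among the best studied in the lactating gland.

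The marker lists set limits to how the populations can be read. The fibroblast list (8 of 8 genes measured) had array medians of 3.87 and 5.54 in pregnant P6 and 4.58 and 4.80 in virgin P6, while the luminal list (8 of 8 genes) had -2.34 and -1.79 in pregnant P6 and 0.16 and -0.36 in virgin P6, which goes against the label of P6 as mammary epithelial cells. Pregnant P4 array 1 had a higher adipocyte list median (6 of 6 genes measured) than its partner, at 4.23 against 0.86 on array 2. The virgin P4 arrays had medians of 0.49 and 0.46. Not all genes of the list went this way: Lep was at 3.92 on pregnant P4 array 1 and 4.78 on array 2, and Fabp4 at 5.71 and 9.28. Transcripts of Itgb1, which encodes CD29, were at 0.91 to 1.63 in pregnant P4 and -1.56 to -0.73 in pregnant P5, and at -0.35 to -0.14 in virgin P4 and -1.53 to -1.34 in virgin P5, so P5 lay below P4 in both conditions although both populations are labelled CD29hi. The third scan batch held array 1 of all 3 pregnant populations and had 111 to 236 saturated spots per array in the channel of the sorted cells, against 0 to 15 on the others; no probe used for a member was saturated. In bulk samples of this kind, fewer cells of a type and less RNA per cell cannot be told apart.

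Differences between groups were tested with limma over the 12 arrays of the 6 replicated groups and adjusted over all genes tested. A gene was called at an adjusted p under 0.05. Where arrays are said not to overlap, this describes their values and is not a test. With 2 arrays a group it can also occur without a difference, and its share over all genes was not counted. Pregnant minus virgin cells gave 18 called transporters in P5, 14 of them higher and 4 lower in pregnant cells. Over all genes tested the share called in that comparison was 21.4%, with 10.7% higher and 10.7% lower. By family, 6 of 15 tested members of family 7 rose and 1 fell, 6 of 17 of family 6 rose and 1 fell, 1 of 7 of family 1 rose, 1 of 5 of family 38 rose and 1 fell, 1 of 4 of family 36 fell, and none of the 2 of family 3 or the 3 of family 43 was called. In P4 there were 3 called members, all lower in pregnant cells, against 3.72% of all genes (1.48% higher, 2.23% lower). In P6 limma called none, with 4 at an unadjusted p under 0.05 and 0.207% of all genes called (0.0507% higher, 0.156% lower). The median difference of the 53 members was 0.16 in P5, -0.039 in P4 and 0.0042 in P6, beside medians over all genes of 0.043, -0.030 and -0.0060.

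**Figure D1:**
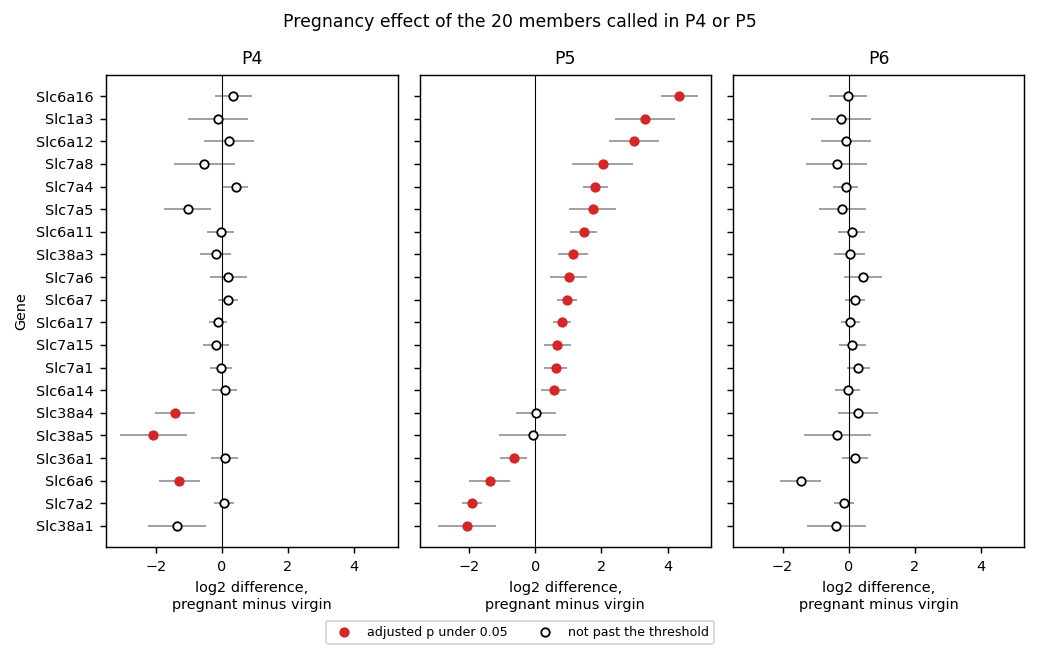
Pregnant minus virgin log2 difference in P4, P5 and P6 (3 panels) for the 20 members called in P4 or P5, with 95% confidence intervals from limma; filled red points passed an adjusted p of 0.05 and open points did not. None of the 14 members higher in pregnant P5 passed the test in P4 or P6, and Slc6a6 lies below 0 in all 3 panels.

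Among the system L carriers, which take up leucine and other large neutral amino acids, Slc7a5 and Slc7a8 rose in pregnant P5. Slc7a5, the LAT1 light chain, was at 0.42 and 0.56 in pregnant P5, against -1.47 and -1.01 in virgin P5 (log2 difference 1.73, SE 0.31, adjusted p = 0.00546). Slc7a8, the LAT2 light chain, was at 1.04 and 1.93 in pregnant P5, against -0.52 and -0.57 in virgin P5 (log2 difference 2.03, SE 0.41, adjusted p = 0.00903). Neither gene's arrays overlapped between the conditions. The family 43 members of system L were not called: Slc43a1, or LAT3, was at -0.30 and -0.30 in pregnant P5 and -0.15 and -0.15 in virgin P5, and Slc43a2, or LAT4, at -0.27 and -0.50 in pregnant P5 and -0.49 and -0.51 in virgin P5.

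The heavy chain gene Slc3a2, whose product CD98 carries LAT1 and LAT2 to the cell surface, did not pass the test in P5. Its level was -0.13 and 0.26 in pregnant P5, against -0.45 and 0.11 in virgin P5, so the groups overlapped (log2 difference 0.24, SE 0.30, adjusted p = 0.641, 95% interval -0.45 to 0.93). The other heavy chain gene, Slc3a1, was well above background on every array of virgin P5 alone among the replicated groups.

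Outside P5 the 2 system L light chains behaved otherwise. In P4, Slc7a5 was at -0.72 and -0.48 in pregnant cells and 0.041 and 0.84 in virgin cells; the groups did not overlap, but the difference was not called (log2 difference -1.04, SE 0.31, adjusted p = 0.129). With the replicate number, the scan or the slide as a block it passed the threshold. Slc7a8 was at -1.15 and -0.29 in pregnant P4 and -0.36 and -0.012 in virgin P4, which overlap. The pregnancy effect differed among P4, P5 and P6 for Slc7a5 (F test, adjusted p = 0.0153) and for Slc7a8 (adjusted p = 0.0433). Of 24 alternatives, the F test call was lost in 4 for Slc7a5 and in 10 for Slc7a8.

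Carriers of cationic amino acids moved in both directions in P5. Slc7a1, the CAT1 carrier of arginine and lysine, was at 0.42 and 0.80 in pregnant P5, against 0.057 and -0.061 in virgin P5, without overlap (log2 difference 0.61, SE 0.15, adjusted p = 0.0206). Slc7a2, the CAT2 carrier, was at 0.20 and 0.43 in pregnant P5, against 2.13 and 2.35 in virgin P5 (log2 difference -1.93, SE 0.13, adjusted p = 5.55e-05). Virgin P5 was the one group in which Slc7a2 stood well apart from the reference: the 10 other replicated arrays lay between -0.29 and 0.43. Slc7a6, a y+L light chain that exchanges cationic for neutral amino acids, was at -0.36 and -0.23 in pregnant P5, against -1.30 and -1.30 in virgin P5 (log2 difference 1.01, SE 0.25, adjusted p = 0.0222). The other y+L chain, Slc7a7, was at 1.59 and 2.61 in pregnant P5 and 1.90 and 1.58 in virgin P5, and was not called there (log2 difference 0.36, SE 0.52, adjusted p = 0.695). Its pregnant P4 arrays were at -0.026 and 1.21 and its pregnant P6 arrays at 0.042 and 1.32, so in all 3 pregnant populations the array from the third scan was the lower one.

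Slc7a4 and Slc7a15 also rose in pregnant P5. Slc7a4 belongs to the cationic carrier branch by sequence, with no settled substrate. It was at 3.92 and 4.36 in pregnant P5, against 2.29 and 2.38 in virgin P5 (log2 difference 1.81, SE 0.17, adjusted p = 0.000216). P5 already carried the highest Slc7a4 levels in virgin mice, and the pregnant arrays lay above these. Slc7a15, which moves aromatic amino acids, was at 0.31 and 0.77 in pregnant P5, against -0.15 and -0.11 in virgin P5 (log2 difference 0.66, SE 0.18, adjusted p = 0.0306). Slc7a11, the xCT exchanger of cystine and glutamate, was not called; its probe was well above background on both arrays of virgin P4 alone among the replicated groups, with levels of -0.10 and -1.22 in pregnant P5 and -1.30 and -1.41 in virgin P5.

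Of the family 1 carriers, Slc1a3 rose in pregnant P5 and the others were not called. Slc1a3, the GLAST carrier of glutamate and aspartate, was at 2.02 and 2.81 in pregnant P5, against -0.81 and -1.003 in virgin P5, without overlap (log2 difference 3.33, SE 0.40, adjusted p = 0.000794; 10-fold higher). All P4 and P6 arrays fell between these ranges. Slc1a1, the EAAC1 glutamate carrier, was at 0.26 and 0.61 in pregnant P5 and 0.81 and 0.70 in virgin P5 (log2 difference -0.32, SE 0.19, adjusted p = 0.278). The ASC carriers of small neutral amino acids and glutamine missed the threshold on opposite sides of 0. Slc1a4, or ASCT1, was at 0.27 and 0.56 in pregnant P5, against -0.72 and -0.37 in virgin P5 (log2 difference 0.96, SE 0.31, adjusted p = 0.063). Slc1a5, or ASCT2, was at -1.92 and -1.65 in pregnant P5, against -1.45 and -0.94 in virgin P5 (log2 difference -0.59, SE 0.19, adjusted p = 0.065). The arrays of both genes did not overlap between the conditions.

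In family 38, which carries glutamine and other neutral amino acids with sodium, Slc38a1 fell and Slc38a3 rose in pregnant P5. Slc38a1, the SNAT1 carrier of system A, was at -1.67 and -1.73 in pregnant P5, against 0.85 and -0.13 in virgin P5 (log2 difference -2.06, SE 0.39, adjusted p = 0.00674). Slc38a3, the SNAT3 carrier of system N, was at 1.07 and 1.62 in pregnant P5, against 0.34 and 0.072 in virgin P5 (log2 difference 1.14, SE 0.20, adjusted p = 0.00542). The 10 other replicated arrays of Slc38a3 lay between -0.048 and 0.34, all below the pregnant P5 arrays. Slc38a2, the SNAT2 carrier of system A, was at 1.22 and -0.15 in pregnant P5, against -1.32 and -0.69 in virgin P5, and was not called (log2 difference 1.54, SE 0.77, adjusted p = 0.205). Its pregnant P4 arrays were at 0.57 and -0.76 and its pregnant P6 arrays at 1.13 and -1.17. In each pregnant population the Slc38a2 array from the third scan was the higher one, by more than the pregnancy effect in P4 or P6.

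The largest rise of any member in pregnant P5 was that of Slc6a16, an orphan carrier related to the neutral amino acid carriers of family 6. It was at 4.78 and 4.33 in pregnant P5, against 0.19 and 0.21 in virgin P5, without overlap (log2 difference 4.35, SE 0.25, adjusted p = 2.51e-05; 20.4-fold higher). No other replicated array exceeded 1.05. Slc6a12, a carrier of betaine and GABA, was at 2.12 and 1.15 in pregnant P5, against -1.44 and -1.29 in virgin P5 (log2 difference 2.997, SE 0.33, adjusted p = 0.000554). Slc6a11, a GABA carrier, was at 1.47 and 1.78 in pregnant P5, against 0.15 and 0.17 in virgin P5 (log2 difference 1.46, SE 0.18, adjusted p = 0.000858). For both genes the pregnant P5 arrays lay above all other replicated arrays. A second Slc6a11 probe did not show the rise, at -0.026 in P5.

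Smaller rises in pregnant P5 were called for Slc6a7, Slc6a17 and Slc6a14. Slc6a7, the proline carrier, was at 1.01 and 0.95 in pregnant P5, against 0.029 and -0.0091 in virgin P5 (log2 difference 0.97, SE 0.13, adjusted p = 0.00151). Slc6a17, a carrier of neutral amino acids found on synaptic vesicles, was at 0.69 and 0.72 in pregnant P5, against -0.074 and -0.11 in virgin P5 (log2 difference 0.80, SE 0.12, adjusted p = 0.00253). Slc6a14, which takes up neutral and cationic amino acids, was at 0.91 and 0.53 in pregnant P5, against 0.21 and 0.11 in virgin P5 (log2 difference 0.56, SE 0.17, adjusted p = 0.0427). None of the 3 overlapped between the conditions. Of these Slc6a17 was also high in P4, at 0.99 and 1.13 in pregnant and 1.10 and 1.25 in virgin cells. Its other probes gave 0.34 and -0.074 for the pregnancy effect in P5. For virgin P4 minus P5 they gave 0.0099 and -0.042, against 1.27 for the probe used. The second Slc6a7 probe gave 0.29 in P5.

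Slc6a6, the taurine carrier, was lower in pregnant cells and called in P4 and P5. Its level was 1.36 and 1.85 in pregnant P4, against 2.73 and 3.08 in virgin P4 (log2 difference -1.30, SE 0.27, adjusted p = 0.0381), and -1.53 and -1.74 in pregnant P5, against -0.30 and -0.20 in virgin P5 (log2 difference -1.39, SE 0.27, adjusted p = 0.00809). In P6 it was -0.76 and -0.21 in pregnant cells, against 1.25 and 0.68 in virgin cells, of like size but not called (log2 difference -1.45, SE 0.27, adjusted p = 0.112). The F test called no difference among the 3 effects (adjusted p = 0.979). A second probe for the same transcript did not show this fall: it gave -0.05 in P4, -0.025 in P5 and 0.21 in P6.

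Slc36a1, the proton-coupled carrier PAT1, was the remaining called member that fell in pregnant P5. It was at -0.98 and -0.76 in pregnant P5, against 0.0039 and -0.43 in virgin P5, without overlap (log2 difference -0.66, SE 0.17, adjusted p = 0.0292). A second Slc36a1 probe gave 0.059.

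**Figure D2:**
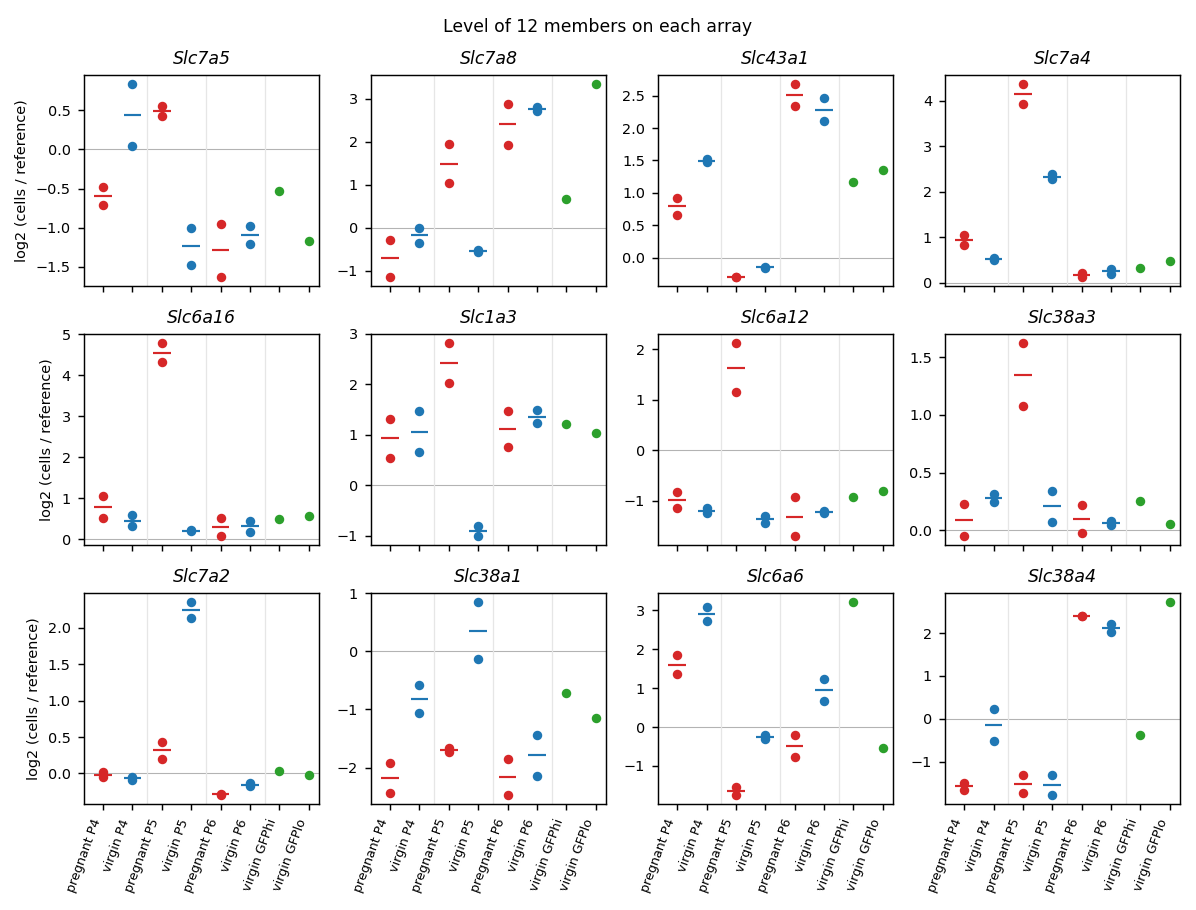
Level of 12 members on each array as log2 of sorted cells over reference RNA; red points are pregnant, blue virgin and green GFP-sorted arrays, and bars are means of 2 arrays. Slc6a16, Slc6a12 and Slc38a3 are high in pregnant P5 alone, Slc7a2 in virgin P5 alone, and Slc7a8 and Slc43a1 are high in P6 of both conditions.

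Other measures moved with these differences in P5. All 7 genes of the hormone-sensing luminal list fell, with array medians of -0.075 and -0.0092 in pregnant P5, against 3.83 and 3.47 in virgin P5. All 5 genes of the skeletal muscle list fell too, with medians of 1.11 and 0.03 in pregnant P5, against 2.58 and 2.85 in virgin P5. Of 8 milk protein genes 2 rose, with list medians of 5.47 and 8.21 in pregnant P5, against 5.20 and 4.92 in virgin P5. Of the 8 genes of the luminal list 4 fell, with medians of 2.64 and 3.12 in pregnant P5, against 4.14 and 4.37 in virgin P5. Of the 6 genes of the luminal progenitor list 2 fell and none rose, while 3 of the 6 differences were above 0. Its medians were 2.46 and 3.48 in pregnant P5, against 4.89 and 4.61 in virgin P5. Of the 10 genes of the basal list 1 rose and 9 had differences above 0, with medians of 2.41 and 1.65 in pregnant P5, against 1.23 and 0.87 in virgin P5. None of the 6 adipocyte genes was called, but all 6 differences were above 0, with medians of 2.05 and 0.31 in pregnant P5, against 0.047 and 0.17 in virgin P5, and the higher of the pregnant arrays was array 1. The part of these cell types and of secretory differentiation in the transporter differences was not tested.

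The comparison rests on 2 arrays a group. All 18 called members kept their direction within the second scan, the one batch that held both conditions. Its arrays also made the calls, so this is no separate check. The difference there was 4.11 for Slc6a16, 1.57 for Slc7a5, 2.51 for Slc7a8 and -1.92 for Slc7a2. When each array was left out in turn, 10 of the 18 stayed called throughout. The other 8 lost the call without at least 1 array, with adjusted p values of up to 0.0502 for Slc38a1, 0.0512 for Slc6a6, 0.0588 for Slc7a8, 0.106 for Slc7a6, 0.109 for Slc7a1, 0.159 for Slc7a15, 0.199 for Slc36a1 and 0.211 for Slc6a14. The arrays concerned were virgin P5 array 1 for Slc38a1, pregnant P5 array 2 for Slc6a6 and both of these for Slc7a8. For the other 5 they were 3 to 9 different arrays. With the slide as a block 14 members were called in P5, 10 of them among the 18. Slc38a1, Slc6a6, Slc6a7, Slc7a1, Slc7a6, Slc7a15, Slc36a1 and Slc6a14 lost the call there.

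Promoter sequences are printed for 4 members to show whether 2 short motifs known from amino acid shortage and from prolactin signalling occur in front of the genes that rose together. RefSeq windows of build GRCm38.p6 were matched by symbol for 36 of the 55 members, among them 10 of the 14 that rose in pregnant P5, and the 250 bases before each start were read on the gene's own strand. TGATGNAA, the core of the amino acid response element bound by ATF4, was searched on both strands, as was TTCNNNGAA, the palindrome bound by STAT proteins, which include the factor through which prolactin acts in this gland. Capitals mark every match. Slc7a8 (chr14:54781887-54782136, minus strand) and Slc1a3 (chr15:8710808-8711057, minus strand) are 2 of the genes that rose most, Slc7a1 (chr5:148392816-148393065, minus strand, the second of its 2 listed starts) rose less, and Slc7a11 (chr3:50443614-50443863, minus strand), not called here, holds matches to both motifs.
Slc7a8: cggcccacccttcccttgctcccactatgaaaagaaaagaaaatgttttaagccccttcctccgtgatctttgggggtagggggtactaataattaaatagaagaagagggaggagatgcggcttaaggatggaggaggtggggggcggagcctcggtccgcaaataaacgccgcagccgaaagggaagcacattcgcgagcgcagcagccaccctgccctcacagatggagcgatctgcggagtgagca
Slc1a3: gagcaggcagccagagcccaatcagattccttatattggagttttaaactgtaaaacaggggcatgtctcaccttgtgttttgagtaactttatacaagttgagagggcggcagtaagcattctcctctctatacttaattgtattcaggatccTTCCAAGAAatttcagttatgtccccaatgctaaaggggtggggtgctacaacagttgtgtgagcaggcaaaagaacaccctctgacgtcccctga
Slc7a1: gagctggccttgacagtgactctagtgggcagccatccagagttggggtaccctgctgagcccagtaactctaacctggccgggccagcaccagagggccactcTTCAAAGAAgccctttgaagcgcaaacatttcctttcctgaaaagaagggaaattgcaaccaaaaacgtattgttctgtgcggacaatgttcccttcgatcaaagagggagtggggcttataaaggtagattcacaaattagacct
Slc7a11: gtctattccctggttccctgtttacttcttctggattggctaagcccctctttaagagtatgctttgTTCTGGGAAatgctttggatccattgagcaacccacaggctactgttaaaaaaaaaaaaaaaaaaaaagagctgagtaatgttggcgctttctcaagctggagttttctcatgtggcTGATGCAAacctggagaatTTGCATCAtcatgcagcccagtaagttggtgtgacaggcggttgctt

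The window of Slc7a8 held neither motif. In Slc1a3 the stretch TTCCAAGAA began 96 bases before the start, and in the printed Slc7a1 window the stretch TTCAAAGAA began 146 bases before it. The window at the other listed start of Slc7a1, not printed, held neither motif. Slc1a3 and Slc7a1 were the 2 of 10 matched members higher in pregnant P5 with a TTCNNNGAA match in any window. This motif was found in 8.13% of the 27025 genes with a window and in 7.02% of all windows. The Slc7a11 window held TTCTGGGAA at 183 bases, and TGATGCAA at 66 bases with its reverse complement TTGCATCA at 47 bases before the start. No member higher in pregnant P5 with a window held TGATGNAA there, against 3.91% of all genes; Slc7a11 and Slc7a7 were the 2 members that did. A match describes letters in these windows and is not evidence of binding, and no overlap between the 2 motifs occurred in the printed sequences.

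In P4 the called members were Slc38a5, Slc38a4 and Slc6a6, all lower in pregnant cells. Slc38a5, the SNAT5 carrier of system N, was at -0.14 and 1.07 in pregnant P4, against 2.04 and 3.05 in virgin P4 (log2 difference -2.08, SE 0.45, adjusted p = 0.0424). Slc38a4, the SNAT4 carrier, was at -1.49 and -1.65 in pregnant P4, against -0.51 and 0.22 in virgin P4 (log2 difference -1.43, SE 0.26, adjusted p = 0.0249). Neither overlapped between the conditions, and within the second scan, on 1 shared slide, the differences were -1.98 for Slc38a5, -1.88 for Slc38a4 and -1.23 for Slc6a6. The second Slc38a4 probe gave -0.18. Without pregnant P4 array 1, which carried the high adipocyte list, none of the 3 was called, nor without virgin P4 array 2 or without the third scan. Without any one of virgin P4 array 1, virgin P5 array 1 or 2 and pregnant P5 array 1 or 2 the count was 1, and without either virgin P6 array it was 2. Without pregnant P4 array 2 the calls of Slc38a4 and Slc6a6 were lost, and other members brought the count to 3. With the slide as a block Slc38a4 and Slc6a6 lost the call too, again with a count of 3.

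Carriers not called in P4 included 2 that set pregnant P4 array 1 apart. Slc36a2, the PAT2 carrier known from brown and beige fat cells, was at 2.32 and 0.17 in pregnant P4, against 0.11 and 0.35 in virgin P4. Slc7a10, the Asc-1 carrier known from white fat cells, was at 1.73 and 0.42 in pregnant P4, against 0.27 and 0.21 in virgin P4. The high value in both cases was array 1, whose adipocyte list median was 4.23, and the part of fat cells in these 2 levels was not tested. Of the system A and L carriers, Slc38a1 was at -2.44 and -1.92 in pregnant P4, against -0.57 and -1.06 in virgin P4 (adjusted p = 0.112), and Slc43a1 at 0.66 and 0.92 in pregnant P4, against 1.52 and 1.47 in virgin P4 (adjusted p = 0.0676). Neither pair of groups overlapped.

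In P6 the largest difference among the 53 members was that of Slc36a2, at 1.41 and 1.75 in pregnant P6, against 3.14 and 3.42 in virgin P6 (log2 difference -1.70, SE 0.56, adjusted p = 0.452). The groups did not overlap but the test was not passed. The other members differed in P6 by -1.45 (Slc6a6) to 0.68 (Slc7a11), and leaving out either pregnant P4 array, or taking the slide as a block, brought the count in P6 to 1.

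Whether the pregnancy effect itself differed among P4, P5 and P6 was tested with an F test over the 3 effects. It called 13 of the 53 members, beside 7.98% of all genes. For 11 of the 13 the P5 effect was both called and the farthest from 0: Slc6a16 (adjusted p = 0.000711), Slc7a2 (0.00137), Slc7a4 (0.00547), Slc6a12 (0.00947), Slc1a3 (0.00979), Slc6a11, Slc7a5, Slc6a17, Slc7a8, Slc38a3 and Slc6a7 (0.0140 to 0.0478 for these 6). The other 2 were Slc38a4, which fell in P4 alone (adjusted p = 0.0451), and Slc43a2, with -0.55 in P4, 0.12 in P5 and 0.50 in P6, none called on its own (adjusted p = 0.0393). The count ran from 4 to 11 when an array was left out, and was 2 with median centring in place of loess.

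**Figure D3:**
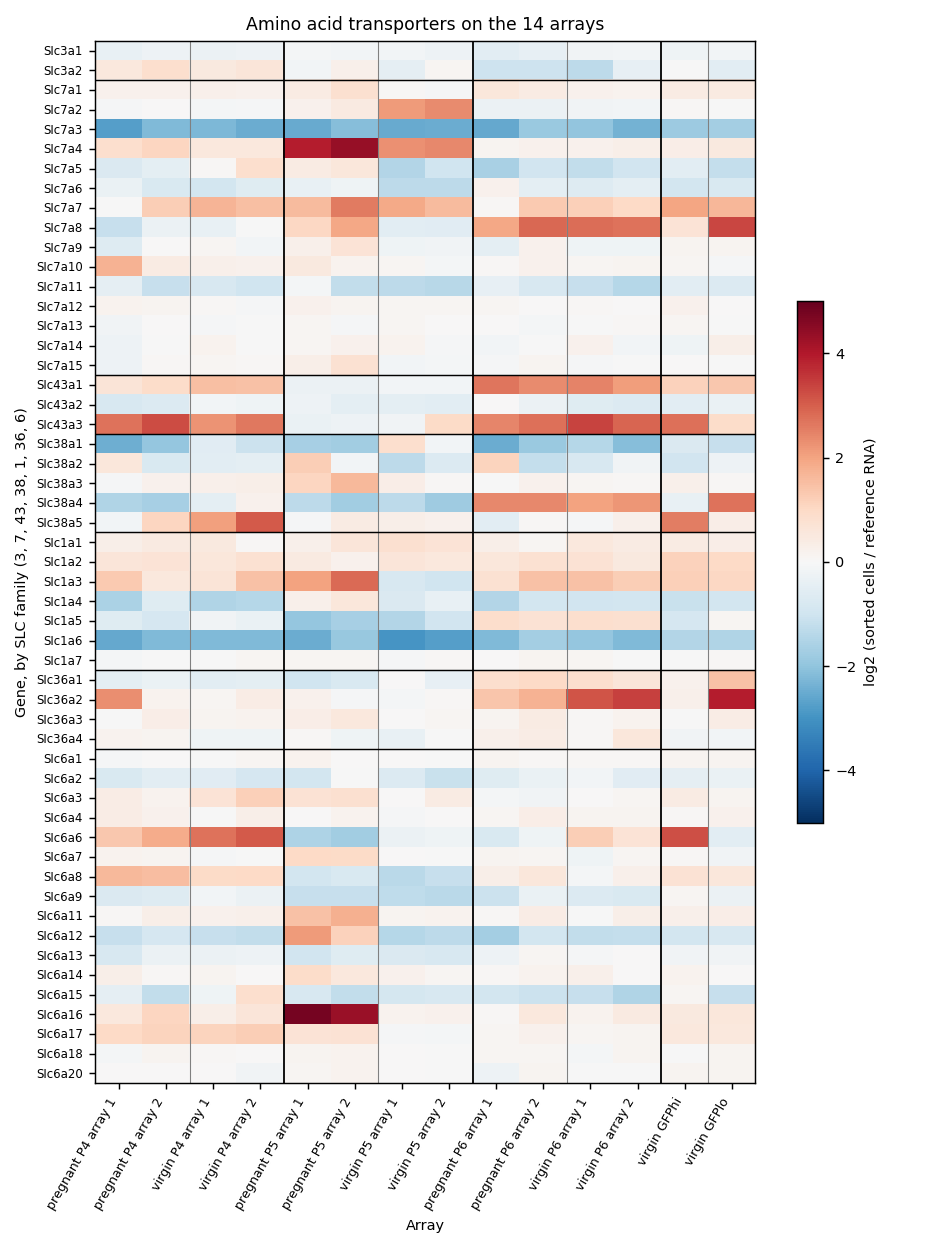
Level of the 53 tested members on all 14 arrays as log2 of sorted cells over reference RNA (red above, blue below the reference), with genes in rows by family and pregnant arrays to the left of virgin ones within P4, P5 and P6. The blocks of Slc38a4, Slc43a1 and Slc7a8 in P6, of Slc6a6 and Slc6a8 in P4 and of Slc7a4 in P5 appear in both conditions.

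The 3 populations differed from each other in many transporters, in pregnant and in virgin mice. In pregnant mice 17 members were called for P4 minus P5 (5 higher and 12 lower in P4; 22.6% of all genes called, 11.7% higher and 10.9% lower), 11 for P4 minus P6 (5 higher, 6 lower; 12.1% of all genes, 6.21% higher and 5.87% lower) and 22 for P5 minus P6 (14 higher, 8 lower; 27% of all genes, 13.8% higher and 13.2% lower). In virgin mice the counts were 13 for P4 minus P5 (11 higher, 2 lower; 11.4% of all genes, 6.57% higher and 4.82% lower), 14 for P4 minus P6 (8 higher, 6 lower; 10.4% of all genes, 4.9% higher and 5.47% lower) and 14 for P5 minus P6 (3 higher, 11 lower; 16.2% of all genes, 7.34% higher and 8.81% lower). Each called difference kept its direction within both scans that held the populations compared, but the same arrays made the calls, so this is no separate check. Virgin P4 minus P5 counted 6 called members without virgin P4 array 2 and 8 without virgin P5 array 1, and virgin P4 minus P6 counted 5 without virgin P4 array 2 and 6 without virgin P6 array 1.

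Slc6a6 and Slc6a8, the carriers of taurine and creatine, were highest in P4. The Slc6a6 levels given above put P4 over P5 by 3.25 in pregnant mice (SE 0.27, adjusted p = 0.000136) and by 3.16 in virgin mice (SE 0.27, adjusted p = 0.000197). Against P6 the differences were 2.09 in pregnant and 1.94 in virgin mice, and the second Slc6a6 probe gave the same order of P4 over P5 with 1.58 and 1.61. Slc6a8 was at 1.62 and 1.55 in pregnant P4, -0.91 and -0.75 in pregnant P5 and 0.31 and 0.56 in pregnant P6. In virgin mice it was at 0.96 and 0.99 in P4, -1.34 and -1.14 in P5 and -0.11 and 0.25 in P6, the same order without overlap (P4 minus P5 2.42 in pregnant and 2.22 in virgin mice, adjusted p = 6.15e-05 and 9.74e-05). The endothelial list had array medians of 2.78 and 3.31 in pregnant P4 and 3.44 and 3.25 in virgin P4. In P5 it was at 1.30 and 1.17 in pregnant and 1.46 and 1.245 in virgin mice. In P6 it was at 0.91 and 2.95 in pregnant and 2.38 and 2.73 in virgin mice. The basal list lay above P5 and P6, at 3.88 and 6.18 in pregnant and 5.15 and 4.83 in virgin P4. The part of these cell types in the P4 levels was not tested.

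Slc38a5 was high in virgin P4, as given above, against 0.28 and 0.22 in virgin P5 (log2 difference 2.30, SE 0.45, adjusted p = 0.0117) and -0.05 and 0.25 in virgin P6 (log2 difference 2.45, SE 0.45, adjusted p = 0.00873). In pregnant mice no difference between populations was called for it. Slc3a2, the CD98 heavy chain, was at 0.52 and 0.85 in pregnant P4, against -1.04 and -1.02 in pregnant P6 (log2 difference 1.72, SE 0.30, adjusted p = 0.00633). It was at 0.51 and 0.60 in virgin P4, against -1.30 and -0.42 in virgin P6 (log2 difference 1.42, SE 0.30, adjusted p = 0.019). Slc3a2 was therefore higher in P4 than in P6 in both conditions, and in pregnant mice also higher in P5 than in P6 (log2 difference 1.10, SE 0.30, adjusted p = 0.0271).

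P6 carried the highest levels of Slc38a4, Slc43a1 and Slc1a5 in both conditions, and of Slc7a8 in virgin mice. Slc1a5, the ASCT2 carrier, was at 0.86 and 0.72 in pregnant P6 and 0.86 and 0.81 in virgin P6, above every P4 and P5 array; the GFPlo array was at 0.12. Slc38a4 was at 2.40 and 2.39 in pregnant P6 and 2.03 and 2.21 in virgin P6, while no P4 or P5 array exceeded 0.22. In pregnant P5 its probe was not well above background on either array, so that the fold against pregnant P6 is a bound, at least 14.6-fold lower (adjusted p = 1.89e-05), set from the lowest signal that counted as above background. In pregnant P4 minus P6 the difference was -3.97 (SE 0.26, adjusted p = 4.07e-05). The second Slc38a4 probe gave -0.38 there and 0.26 for pregnant P5 minus P6, the second of these with the opposite sign.

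Slc43a1, a leucine carrier of system L, was at 2.68 and 2.35 in pregnant P6 and 2.46 and 2.11 in virgin P6. It was lowest in P5, with -2.81 for pregnant P5 minus P6 (SE 0.17, adjusted p = 1.18e-05) and -2.44 for virgin P5 minus P6 (adjusted p = 2.91e-05). P4 lay between the 2 in both conditions, called on each side. In virgin mice the call against P6 (-0.79) was lost without virgin P4 array 1 or 2 or virgin P6 array 1, with the scanner's ratios, the series table, median centring or only the arrays compared, and the difference was 0.44 with local backgrounds as given. Slc7a8 was at 1.92 and 2.88 in pregnant P6 and 2.81 and 2.72 in virgin P6. Virgin P5 minus P6 was -3.31 (adjusted p = 0.000657), whereas the pregnant P5 arrays given above overlapped those of pregnant P6 (log2 difference -0.91, SE 0.41, adjusted p = 0.141). So within pregnant mice Slc7a5 was highest in P5 (log2 difference 1.78, SE 0.31, adjusted p = 0.00316 against P6), Slc7a8 was high in P5 and P6, and Slc43a1 was highest in P6.

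Slc43a3, known as a carrier of purine nucleobases, was low in P5 of both conditions. Its level was 2.70 and 3.28 in pregnant P4, -0.34 and -0.24 in pregnant P5 and 2.42 and 2.75 in pregnant P6. In virgin mice it was 2.23 and 2.65 in P4, -0.16 and 0.95 in P5 and 3.38 and 2.90 in P6. P4 minus P5 was 3.28 in pregnant and 2.05 in virgin mice (adjusted p = 0.000484 and 0.00812), and P5 minus P6 was -2.87 and -2.74 (adjusted p = 0.000594 and 0.00105).

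Slc36a2 was high in virgin P6, with -3.04 for virgin P4 minus P6 (adjusted p = 0.00888) and -3.30 for virgin P5 minus P6 (adjusted p = 0.0037). The adipocyte list, which moved with it on pregnant P4 array 1, was at medians of 0.96 and 0.50 in virgin P6. Fibroblast and pericyte lists were high in P6 throughout, at medians of 2.71 and 4.21 in pregnant and 3.81 and 3.87 in virgin P6 for the pericyte list (6 of 6 genes). Their part in the P6 levels of Slc38a4, Slc43a1, Slc7a8 and Slc36a2 was not tested.

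P5 had the highest levels of Slc7a4 in both conditions. For Slc7a4, P4 minus P5 was -3.20 in pregnant mice (SE 0.17, adjusted p = 1.97e-05) and -1.81 in virgin mice (adjusted p = 0.000259), and P5 minus P6 was 3.97 and 2.08. In pregnant mice Slc6a16 followed, with -3.77 for P4 minus P5 and 4.26 for P5 minus P6 (adjusted p = 5.32e-05 and 9.9e-06), and Slc6a12 with -2.61 and 2.94. In virgin mice Slc7a2 stood out, with -2.31 for P4 minus P5 and 2.40 for P5 minus P6 (adjusted p = 3.47e-05 and 1.02e-05). Slc1a3 was lower in P4 than in P5 in pregnant mice (-1.49, adjusted p = 0.0289) and higher in P4 than in P5 in virgin mice (1.97, adjusted p = 0.0143). For Slc7a5, P4 minus P5 was -1.09 in pregnant and 1.68 in virgin mice (adjusted p = 0.0367 and 0.00939). In pregnant mice the Slc7a5 call was lost in 9 of 25 alternatives, among them without each of the 4 pregnant P4 and P5 arrays (adjusted p up to 0.165), and the difference came as near 0 as -0.39. The Slc1a3 call there was lost in 6 of 25, among them without pregnant P4 array 2 or pregnant P5 array 2 (adjusted p up to 0.182), and the difference came as near 0 as -0.73.

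GFPhi and GFPlo cells have 1 array each, so their differences carry no test. At least 2-fold apart were 8 of the 53 members, 4 higher and 4 lower in GFPhi cells, beside 6.34% of all genes (3.34% higher, 3% lower). Slc6a6 was at 3.21 in GFPhi cells, against -0.53 in GFPlo cells (log2 difference 3.75, no test). Slc38a5 was at 2.56 in GFPhi cells, against 0.34 in GFPlo cells (log2 difference 2.22, no test) and Slc43a3 at 2.75 in GFPhi cells, against 0.91 in GFPlo cells (log2 difference 1.83, no test). Slc6a6 and Slc38a5 were also called higher in virgin P4 than in virgin P5 and P6, as were Slc6a8, Slc6a17 and Slc7a5, which were less than 2-fold apart here.

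The lower members in GFPhi cells were carriers high in virgin P6. Slc36a2 was at 0.26 in GFPhi cells, against 3.92 in GFPlo cells (log2 difference -3.67, no test). Slc38a4 was at -0.37 in GFPhi cells, against 2.72 in GFPlo cells (log2 difference -3.09, no test) and Slc7a8 at 0.67 in GFPhi cells, against 3.33 in GFPlo cells (log2 difference -2.66, no test). The smallest of the 4 was Slc36a1, at 0.20 in GFPhi cells, against 1.47 in GFPlo cells (log2 difference -1.27, no test). Slc6a15, a carrier of branched-chain amino acids and proline, was not well above background in GFPlo cells and was at least 2.15-fold higher in GFPhi cells. The fibroblast list had a median of 1.40 in GFPhi cells and 4.16 in GFPlo cells, and the pericyte list 1.62 in GFPhi and 3.74 in GFPlo cells. Higher in GFPhi cells were the basal list, at 5.38 in GFPhi and 2.37 in GFPlo cells, and the luminal progenitor list, at 5.13 in GFPhi and 3.30 in GFPlo cells. The skeletal muscle list was at 2.43 in GFPhi and 0.23 in GFPlo cells. The part of these cell types in the transporter differences was not tested.

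Genes measured by several probes did not always give one answer. Among the called members with another bright probe in P5, 5 of 13 other probes pointed the opposite way in the pregnancy effect. Slc6a16, Slc6a12, Slc7a1, Slc7a2, Slc7a4, Slc7a5, Slc7a8 and Slc38a3, also called in P5, had 1 probe each. Their differences could therefore not be compared between probes. For Slc38a1, 3 of the 5 other probes gave -2.02, -1.84 and -1.80, close to the -2.06 of the brightest, while 2 gave 0.56 and 0.26. Slc38a2, not called, had 4 probes at 1.54, 0.55, -0.075 and -0.48. The second probe of Slc1a1 gave -1.64 in P5, against -0.32 for the brighter one, and the other bright probe of Slc1a3 gave 0.45 against 3.33. For these genes the size of the difference depends on the probe, and which transcripts each probe meets was not tested.

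**Figure D4:**
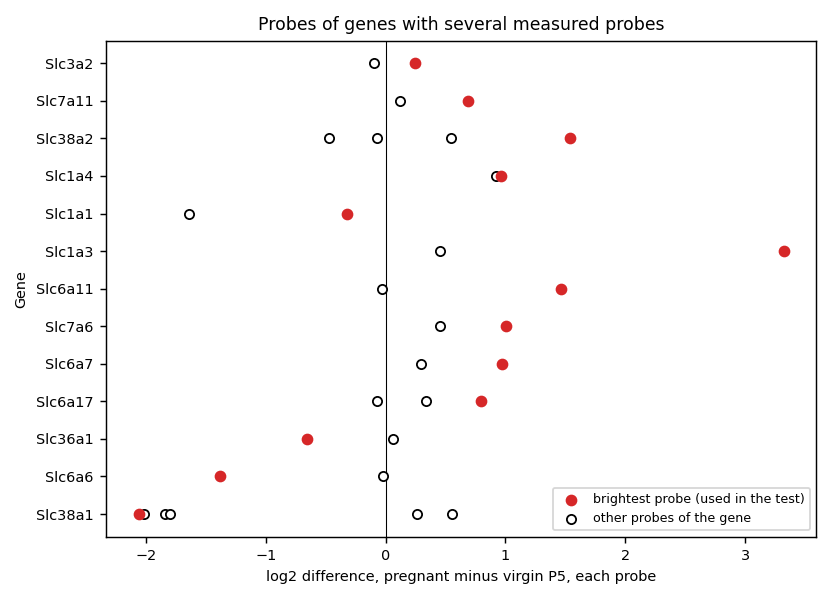
Pregnant minus virgin log2 difference in P5 for each measured probe of 13 genes with more than 1 such probe; red points are the brightest probe, used in the test, and open points the other probes. Slc38a1 splits into probes near -2 and probes just above 0, and Slc38a2 spreads on both sides of 0.

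Genes that respond to amino acid supply were set beside the carriers. A list of 20 genes of the amino acid response held Atf4 itself and genes known as its targets. Of these 20, 6 rose and none fell in pregnant P5, where 10.7% of all genes rose and 10.7% fell. The list median was 0.97 beside 0.043 over all genes. The largest rises were those of Trib3, a pseudokinase of the stress response (log2 difference 2.66, SE 0.31, adjusted p = 0.000705), Asns, asparagine synthetase (log2 difference 2.56, SE 0.35, adjusted p = 0.00155), and Nupr1, a stress-induced chromatin protein (log2 difference 1.99, SE 0.41, adjusted p = 0.00979). Of 20 aminoacyl-tRNA synthetase genes, which charge tRNAs, 5 rose and 1 fell, beside the same shares of all genes, with a list median of 0.79. Nars, for asparagine (log2 difference 1.25, SE 0.26, adjusted p = 0.00982), Tars, for threonine, and Iars, for isoleucine, rose most, by 1.06 for Tars and 1.04 for Iars. Wars, for tryptophan, was the one that fell (log2 difference -1.84, SE 0.40, adjusted p = 0.0125).

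The lists of amino acid sensing and of other carriers held called genes of both directions. Of 19 measured sensing genes, which act on the mTOR kinase at the lysosome, 1 rose and 3 fell in pregnant P5, a share close to the 21.4% called over all genes. Lamtor2, a subunit of the lysosomal Ragulator, rose (log2 difference 1.498, SE 0.29, adjusted p = 0.00807), and the sestrin genes Sesn1 and Sesn3 fell, with differences of -1.15 for Sesn1 and -0.998 for Sesn3; Lamtor3, another Ragulator subunit, also fell (log2 difference -0.51, SE 0.15, adjusted p = 0.041). Of 16 measured genes for peptide, aromatic, mitochondrial, vesicular and lysosomal carriers, 3 rose and 2 fell. Over all genes 10.7% rose and 10.7% fell. Slc15a2, a peptide carrier, fell (log2 difference -2.06, SE 0.27, adjusted p = 0.00128), and Slc25a18 and Slc25a22, mitochondrial glutamate carriers, rose by 0.99 and 0.96. In P4 these lists held 2 called genes, Eif4ebp1, a translation repressor, higher in pregnant cells (log2 difference 1.05, SE 0.21, adjusted p = 0.035), and Slc15a2, lower (log2 difference -1.33, SE 0.27, adjusted p = 0.0354). In P6 limma called none of them.

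**Figure D5:**
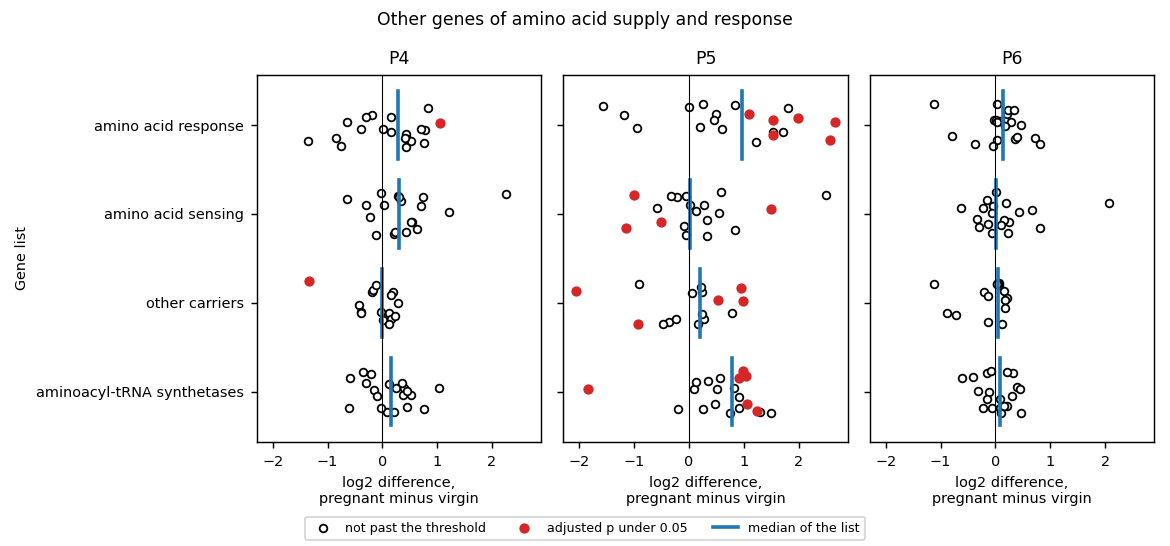
Pregnant minus virgin log2 difference in P4, P5 and P6 for each measured gene of 4 lists (rows); red points passed an adjusted p of 0.05, open points did not, and blue bars are list medians. The medians of the amino acid response list (0.97) and of the synthetase list (0.79) in P5 lie above those in P4 (0.29 and 0.17) and P6 (0.13 and 0.089).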

How the data were processed

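RNA of sorted mouse mammary cells (Cy5) and a common reference RNA (Cy3) was measured on 14 two-colour arrays. The deposited intensity values are scanner output, made with Agilent Feature Extraction 9.5.3.1 per the file headers, which also name the array's build, mm7. The deposited log10 ratios of red over green, and the authors' series table, whose log2 values follow them, served as alternatives; what the authors did beyond the scanner's own processing is not given in the sources used here.

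Local backgrounds marked as outliers (412 to 1659 a channel) were replaced by the array's median, and intensities were corrected by normexp (offset 50) and normalized by loess within each array. Log2 ratios of each probe were averaged over its spots, leaving out control and outlier spots. A probe was kept if all arrays of any of the 6 replicated groups had it well above background in Cy5, and the brightest probe stood for a gene. limma 3.58.1 in R 4.3.3 fitted a mean for each of 6 groups over 12 arrays (6 residual degrees of freedom), and p-values were adjusted by Benjamini-Hochberg over all genes. The steps were tested on simulated data with independent deviations between arrays. Median Cy5 signals were 70.9 to 196, with 66.4% to 86.7% of probes well above background, and the number of arrays limits the precision. Cells with 1 array a group were not tested.

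Any member could be named, and array values were given for each called in a pregnancy effect, for the 5 largest differences between populations and for a set of carriers known from the mammary gland. The members, gene lists and tests were chosen with earlier results of these data known. Replicate numbers were checked for pairing. Deviations of arrays with one number correlated at 0.304 to 0.688 within a condition and at -0.208 to 0.146 between pregnant and virgin arrays. Numbers therefore do not pair pregnant with virgin samples. Within a condition, arrays with the same number shared deviations, and the main fit left this out by treating all its arrays as independent. Those arrays also shared a scan, so replicate number and scan cannot be told apart there. Promoter windows came from RefSeq (GRCm38.p6). Background correction, normalization, filter, probe choice, slide, scan and replicate blocks and leaving out arrays were tried as alternatives.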

Additional observations from a re-analysis of the deposited data

Results flagged for a closer look

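For 13 members the pregnancy effect differed among P4, P5 and P6 by the F test, which calls 7.98% of all genes. The adjusted p was 0.000711 for Slc6a16, 0.00137 for Slc7a2, 0.00547 for Slc7a4, 0.00947 for Slc6a12 and 0.00979 for Slc1a3. It was 0.014 for Slc6a11, 0.0153 for Slc7a5, 0.0256 for Slc6a17, 0.0393 for Slc43a2 and 0.0433 for Slc7a8. For Slc38a3, Slc38a4 and Slc6a7 it was 0.045, 0.0451 and 0.0478. Of 24 alternatives, the call was lost in 18 for Slc6a7, 17 for Slc43a2 and 15 each for Slc38a3 and Slc38a4. It was lost in 13 for Slc6a17, 10 for Slc7a8 and none for Slc7a2, and in 1 to 6 for the others. With 2 arrays a group, no single array could be tested as standing apart from its group.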

How the results depend on the processing

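Over all alternatives the count of called members ran from 0 to 5 in P4, 12 to 25 in P5, 0 to 1 in P6 and 2 to 23 for the F test. Of 21 calls in the pregnancy effects, 6 (Slc1a3, Slc38a3, Slc6a11, Slc6a12, Slc6a16 and Slc7a2) held in all 24 alternatives run for them and none reversed. Of 112 calls over the 9 comparisons 1 reversed: with local backgrounds as given, Slc43a1 in virgin P4 minus P6 was 0.44. The cause was not tested for any change named here. The share of all genes called in each alternative is not given here, so a changed count may not be particular to the members.

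With the replicate number as a block, the pregnancy effect in P4 counted 5 members in place of 3. With the block in each condition, virgin P4 minus P5 counted 20 in place of 13 and the F test 23 in place of 13. Numbers did not pair pregnant with virgin arrays. The scan as a block gave 5 in P4, 20 and 23. Within a condition the replicate number and the scan split the arrays alike, so the scan block repeats the fit of the block in each condition. Its 20 and 23 are therefore no further check, although both blocks are counted among the alternatives. The slide as a block, which split the virgin arrays in the same way, gave 1 in P6, 20 and 23. It kept 10 of the 18 P5 calls and 1 of the 3 P4 calls.

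With median centring in place of loess the counts were 0 in P4, 10 and 6 for pregnant P4 minus P5 and minus P6, 14 for pregnant P5 minus P6, 5 and 4 for virgin P4 minus P5 and minus P6, and 2 for the F test. The split of calls was then 4 higher and 2 lower for pregnant P4 minus P6, 3 and 2 for virgin P4 minus P5, and 4 and 6 for virgin P5 minus P6. It was 7 and 5 for pregnant P4 minus P6 with the scanner's ratios. Median centring put the median of all genes at 0.14 in the P4 effect and 0.16 in pregnant P4 minus P6, and the scanner's ratios put it at 0.11 in the P5 effect and -0.17 in pregnant P4 minus P5. With backgrounds as given the counts were 1 in P4, 8 for virgin P4 minus P6 and 4 for the F test. The scanner's ratios and the series table each gave 1 in P4. With only the arrays compared they were 0 in P4, 11 and 5 for pregnant P4 minus P5 and minus P6, and 9 for virgin P4 minus P6. Without the third scan they were 0 in P4 and 8 for the F test.

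Leaving out 1 array gave 0 to 3 members in P4, 12 to 19 in P5 and 0 to 1 in P6. It gave 13 to 18, 9 to 11 and 16 to 23 in pregnant P4 minus P5, P4 minus P6 and P5 minus P6, and 6 to 14, 5 to 15 and 11 to 16 in the same comparisons of virgin mice. For the F test it gave 4 to 11, with 4 without virgin P5 array 1 and 5 without pregnant P5 array 2. A group left with 1 array is assumed to vary like the others.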
